A study of Mus musculus with 4 samples.

Results

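Contacts of the Il1a viewpoint were examined in the 2 of the 4 libraries of the series whose titles name Il1a. One library came from embryonic stem cells (ESC) and one from peritoneal macrophages given KLA, with 1 library in each group. The method was 4C-seq, circular chromosome conformation capture, in which the DNA fragments ligated to 1 chosen fragment, the viewpoint, are amplified by inverse PCR and sequenced. The series asked whether putative macrophage enhancers that carry marks beforehand touch the promoters they belong to.

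The ESC were of line 46c, grown without feeder cells in serum with LIF. The macrophages were elicited with thioglycollate 3 to 4 days before collection in female C57BL/6J mice 6 to 8 weeks old, cultured overnight and treated with KLA for 1 h. The labels do not spell out KLA, and they do not say whether macrophages of several mice were pooled. Cells of both groups were fixed in 1% formaldehyde, their chromatin was cut with an enzyme the labels write as HindII and then with DpnII, and about 16 PCR reactions were made per viewpoint. No macrophage library without KLA and no ESC library with KLA was analysed here, so cell type and KLA cannot be told apart. DNA contacts carry no expression markers, so the labelled cell types could not be checked. With 1 library a side, every difference is between 2 libraries, with no replicate error and no test.

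Il1a encodes interleukin 1 alpha, a cytokine that starts inflammation through the interleukin 1 receptor and that macrophages make after contact with bacterial products. Promoters of such genes can be reached by distant enhancers when the DNA between them folds into a loop, and 4C-seq reads such proximity as contact above the level that distance alone gives. In the RefSeq order of protein-coding genes on chromosome 2, Il1a stands between Ckap2l, which encodes a protein of the mitotic spindle, and Il1b, which encodes interleukin 1 beta. Next come Slc20a1, a phosphate transporter, towards lower coordinates, and, after F830045P16Rik, Sirpa, an inhibitory receptor of myeloid cells, towards higher coordinates. The profiles use mm9 positions and the gene table GRCm38.p6, so no gene was placed on the profiles and no position below is called a promoter or an enhancer.

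The enzymes decide which fragments 4C-seq can read, so the 250 bases before the starts of Il1a and of its neighbour Il1b are shown with the sites of both enzymes, as the labels name them, in capitals. The motif searched for DpnII was GATC. For HindII it was GTCAAC or its reverse complement GTTGAC, or either of the palindromes GTTAAC or GTCGAC, so both strands were covered, and no 2 sites overlapped in the windows shown. The sequences are from RefSeq, build GRCm38.p6, minus strand, written 5′ to 3′ towards the gene, at chr2:129309973-129310222 for Il1a and chr2:129371140-129371389 for Il1b, a build that cannot be set against the mm9 profiles.
Il1a: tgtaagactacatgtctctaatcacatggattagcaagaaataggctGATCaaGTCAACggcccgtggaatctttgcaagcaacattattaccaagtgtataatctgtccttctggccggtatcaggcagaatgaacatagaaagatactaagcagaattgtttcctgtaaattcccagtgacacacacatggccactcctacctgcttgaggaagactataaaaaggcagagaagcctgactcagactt
Il1b: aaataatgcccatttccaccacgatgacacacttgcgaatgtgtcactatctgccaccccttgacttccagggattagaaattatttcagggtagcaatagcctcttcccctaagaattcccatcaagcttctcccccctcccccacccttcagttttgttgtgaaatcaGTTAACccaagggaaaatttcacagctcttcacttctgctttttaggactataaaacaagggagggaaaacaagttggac

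The Il1a window held 1 DpnII site, beginning 203 bases before the start, and 1 HindII site, GTCAAC, beginning 197 bases before it. The Il1b window held 1 HindII site, GTTAAC, beginning 80 bases before the start, and 0 DpnII sites. Among 32851 promoter windows of this length, 41.9% held a DpnII site, 9.14% a HindII site and 3.86% both. Whether the label means HindII or the similarly named HindIII, which cuts at AAGCTT, was not settled. Under HindIII the Il1a window would hold 0 sites of the first enzyme and the Il1b window 1, left in lower case above, and 6.22% of the promoter windows hold that motif. No source used here says whether the viewpoint primers lie at either promoter.

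Each profile held 2001 positions 1000 bp apart, from 128153157 to 130153157 in mm9 with no chromosome named in the files, and its middle was at 129153157. The position of the viewpoint is not given in any source used here, so the middle served as the reference point and may not be the viewpoint. Distances below are from this middle, negative towards lower coordinates, and values are for windows of 10 kb unless another width is named. Neighbouring windows share 9 kb, so positions are not independent points. Each library was divided by its own median contact over windows 500 to 900 kb from the middle, here the far level, so that 1 means the far level of that library. The deposited profiles are scaled so that the highest window of a library is 1, and on that scale the far level was 0.102 in ESC and 0.224 in macrophages. That 2.20-fold gap is removed by the division, and absolute contact cannot be compared. The files give no read numbers, so depth is unknown and no interval can be given.

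Contact was higher around the middle of the profile than at the far level in both cell types. Within 10 kb of the middle, over 21 positions, it ranged from 1.27 to 2.56 times the far level in ESC, with a median of 2.03. In macrophages it ranged from 1.253 to 2.98, with a median of 2.43. The 2 ranges overlapped over most of their length. The summed contact within 10 kb was 2.17% of that within 900 kb in ESC and 2.55% in macrophages, from 1.17% of the positions. Within 100 kb, which held 11.1% of the positions, the shares were 13.7% and 14.3%. In windows of 20 kb, contact stayed at 1.5 times the far level or more from -11 to 18 kb in ESC and from -13 to 18 kb in macrophages. At 2 times that level or more, it stayed up from -1 to 18 kb in ESC and from -1 to 10 kb in macrophages.

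Non-overlapping windows show the shape of the raised stretch. At the middle itself contact was 2.03 in ESC and 2.67 in macrophages, and 10 kb above it 2.56 and 2.79. At 20 kb it was still 2.54 in ESC and 1.90 in macrophages, and at 30 kb it was 1.21 and 1.397. The change between them was not gradual. At 21 kb contact was 0.381 in ESC and 0.312 in macrophages, under the far level, and windows at 24 and 25 kb held no value. On the other side contact was already down at -10 kb, to 1.29 in ESC and 1.253 in macrophages. Counted from the middle, the raised stretch thus reached further towards higher coordinates in both libraries. Counted from the highest 2 kb window, the upper over the lower side at 10 to 25 kb was -0.27 in ESC and -0.21 in macrophages (log2). At -20 kb from the middle contact was 1.13 in ESC and 1.66 in macrophages. At -30 kb it was 1.27 and 1.19. Of 21 non-overlapping windows within 100 kb, 20 in ESC and 19 in macrophages were above the far level, and 4 in each reached 1.5 times that level. The lowest of them lay at -100 kb, with 0.474 in ESC and 0.611 in macrophages.

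**Figure D1:**
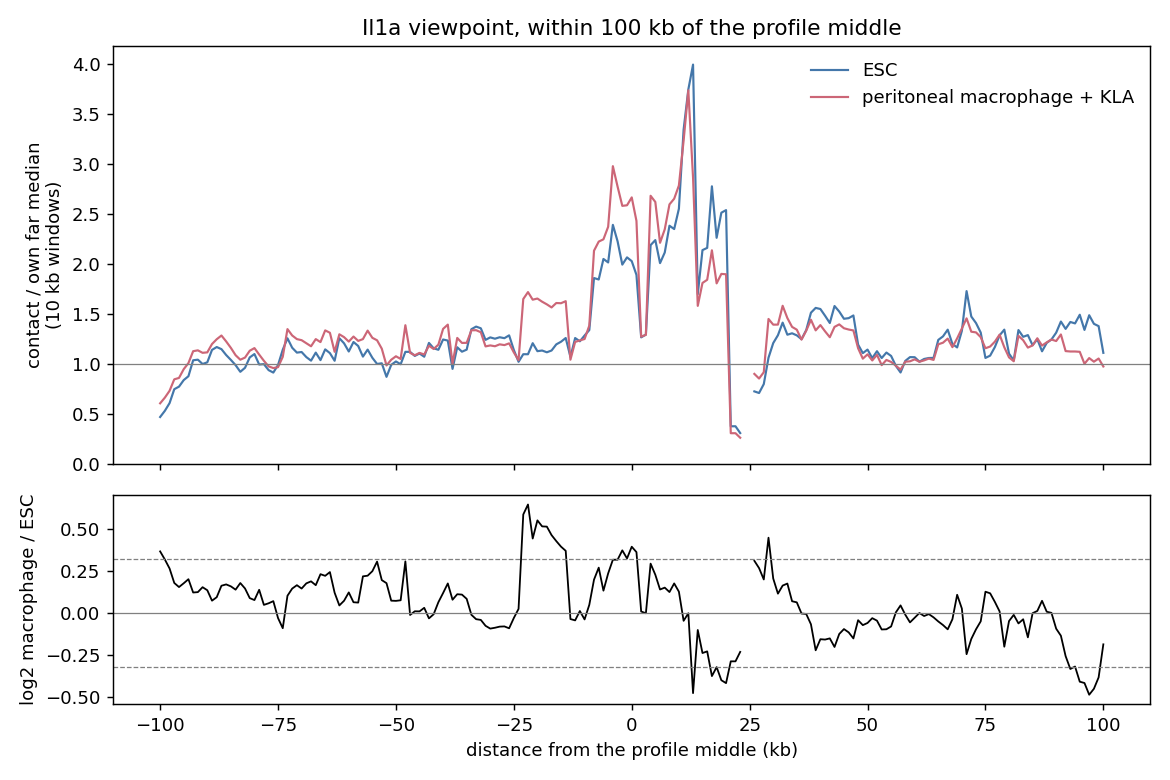
Contact in 10 kb windows within 100 kb of the profile middle, divided by each library's far level (top; ESC blue, peritoneal macrophages with KLA red), and log2 of macrophages over ESC (bottom; dashed lines at 0.32 and -0.32). Both libraries peak 12 to 13 kb above the middle, at 3.74 to 4.00 times the far level, and the gap near 24 kb has windows at 0 in both.

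The highest contact of both libraries lay not at the middle but 12 to 13 kb above it. At 129165157, 12 kb above the middle, contact was 3.75 in ESC and 3.74 in macrophages. At 129166157, 1 kb further, it was 4.00 in ESC, the highest value of that library, and 2.87 in macrophages. A step of 1 kb in the window thus took the log2 ratio of macrophages over ESC from -0.0030 to -0.48. One more step, to 14 kb, lowered contact to 1.70 in ESC and 1.58 in macrophages. Within 25 kb of the middle, 4 of 49 such steps in ESC and 7 of 49 in macrophages changed contact 1.4-fold or more. Between 500 and 900 kb, 1 of 802 steps in ESC and 3 of 802 in macrophages did so.

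In windows of 2 kb the same 2 positions led both libraries. As deposited, the window at 129161157 was 1 in ESC and 0.998 in macrophages, since each library is scaled to its highest window. That these positions stood further above the far level in ESC thus restates the gap between the 2 far levels and is no separate difference. The window at 129161157, 8 kb above the middle, had a contact of 9.70 in ESC and 4.395 in macrophages. The window at 129162157 had 9.48 in ESC and 4.402 in macrophages. The order turned at 129149157, 4 kb below the middle, with 2.84 in ESC and 4.24 in macrophages. Next to it, at 129150157, contact was 1.37 in ESC and 2.79 in macrophages. Of the 5 highest windows of each library 3 were shared, and 4 of those of ESC and 5 of those of macrophages lay within 25 kb of the middle. The other one of ESC lay at -346 kb, with 2.85 in ESC and 1.54 in macrophages.

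After division by the far level the macrophage and ESC profiles differed little over most of their length in windows of 10 kb. Across 1799 positions within 900 kb, 96.7% differed by less than 0.32 on the log2 scale, the size from which a position is counted as different below, and the central 95% of log2 ratios of macrophages over ESC ran from -0.29 to 0.29. Macrophages were higher by that size or more at 31 positions, or 1.72%, and lower at 29, or 1.61%. At 1.5-fold, 3 positions (0.167%) were higher in macrophages, 2 of them among the 199 within 100 kb (1.01%) and 1 among the 802 at 500 to 900 kb (0.125%), and 0 were lower, and at 2-fold 0 positions differed in either direction. Contact in the far windows also varied from place to place within a library, with an SD on the log2 scale of 0.29 in ESC and 0.20 in macrophages, against 0.11 for the log2 ratio. The narrowest windows differed more. In windows of 2 kb 4.06% of positions within 900 kb were counted as higher in macrophages and 20.5% as lower. At that width the SD of the log2 ratio over far windows was 0.36, above the size of 0.32. Single log2 ratios ran from -5.19 to 4.22 there, so these shares are not comparable with those of 10 kb windows. In windows of 3 kb the shares were 3.22% and 9.10%.

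**Figure D2:**
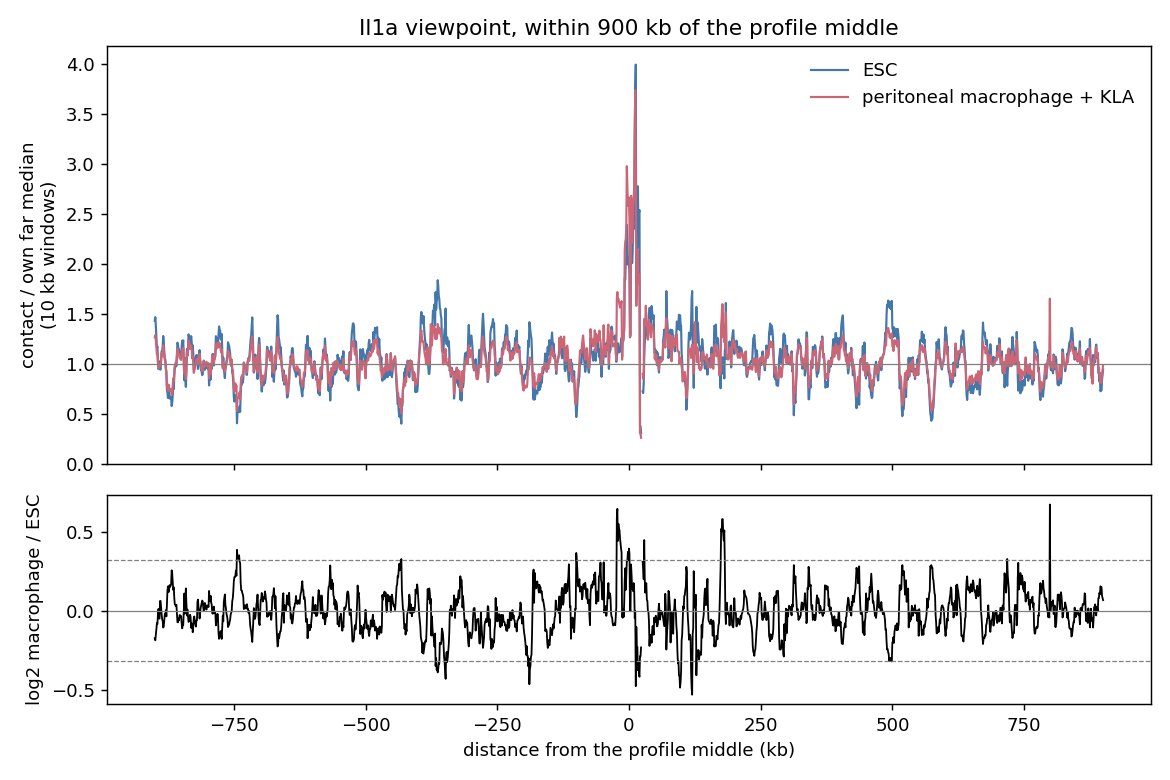
The same quantities within 900 kb of the middle. Contact was highest next to the middle in both libraries, and the log2 ratio stayed between -0.53 and 0.67 throughout.

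In windows of 10 kb counted differences made up a larger share of the positions close to the middle than of the whole profile. Within 25 kb of the middle 14 positions were higher in macrophages and 5 were lower, out of 49 with a value. Of the 14 higher ones 10 formed a single stretch at -23 to -14 kb, described below. Within 100 kb the counts were 16 and 11 of 199, or 8.04% and 5.53%, against 1.72% and 1.61% within 900 kb. At 500 to 900 kb they were 7 and 0 of 802, or 0.873% and 0%. Non-overlapping windows gave 3 higher and 1 lower of 21 within 100 kb (14.3% and 4.76%) and 5 higher and 3 lower of 181 within 900 kb (2.76% and 1.66%). The larger share near the middle did not hold in windows of 20 kb. There 0 positions were counted in either direction within 100 kb, against 0% higher and 0.555% lower within 900 kb. The counted differences are described here by distance and side.

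Within 10 kb of the middle the median log2 ratio was 0.20, that is 1.15-fold higher in macrophages. Of 21 overlapping positions 19 were above 0, against 414 of 800 beyond 500 and up to 900 kb. The log2 ratio within 10 kb ran from -0.040 to 0.39, and 4 positions were counted as higher and 0 as lower. The direction was not the same under all ways of reading the values. It was -0.14 in windows of 5 kb, -0.29 with the offset of each library kept in its contact and -0.55 with a log-normal arithmetic mean, an alternative chosen after seeing the data. The offset, read from the relation of the central value to its bounds, behaves as a constant added before a log mean is taken, and was equal to 0.351 of the far level for ESC but 2.13 far levels for macrophages. In 43 of the 48 window widths the median within 10 kb was above 0, from -0.14 at 5 kb to 0.22 at 42 kb. At the middle itself it was above 0 in 47 widths, from -0.29 at 4 kb to 0.39 at 10 kb. Wider windows contain the narrower ones at the same position, so the widths are not separate checks. The part of the unequal offsets in these ratios was not tested.

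At 10 to 25 kb from the profile middle, in windows of 10 kb, the 2 sides differed in opposite directions. On the side of lower coordinates the median contact was 1.14 in ESC and 1.61 in macrophages, with a median log2 ratio of 0.43, and 10 of 15 positions were counted as higher in macrophages. On the side of higher coordinates it was 2.26 in ESC and 1.85 in macrophages, with -0.29, and 5 of 13 positions were counted as lower. ESC contact there was 0.99 higher on the log2 scale on the upper side than on the lower, and macrophage contact 0.20 higher. The difference on the lower side ended with another width: a width of 5 kb gave -0.058 and one of 20 kb gave -0.035. On the upper side these widths gave -0.42 and 0.021. With distances taken from the highest 2 kb window in place of the middle, both sides were higher in macrophages, by 0.23 on the lower and 0.16 on the upper side. The upper over the lower side then gave -0.27 in ESC and -0.21 in macrophages.

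**Figure D3:**
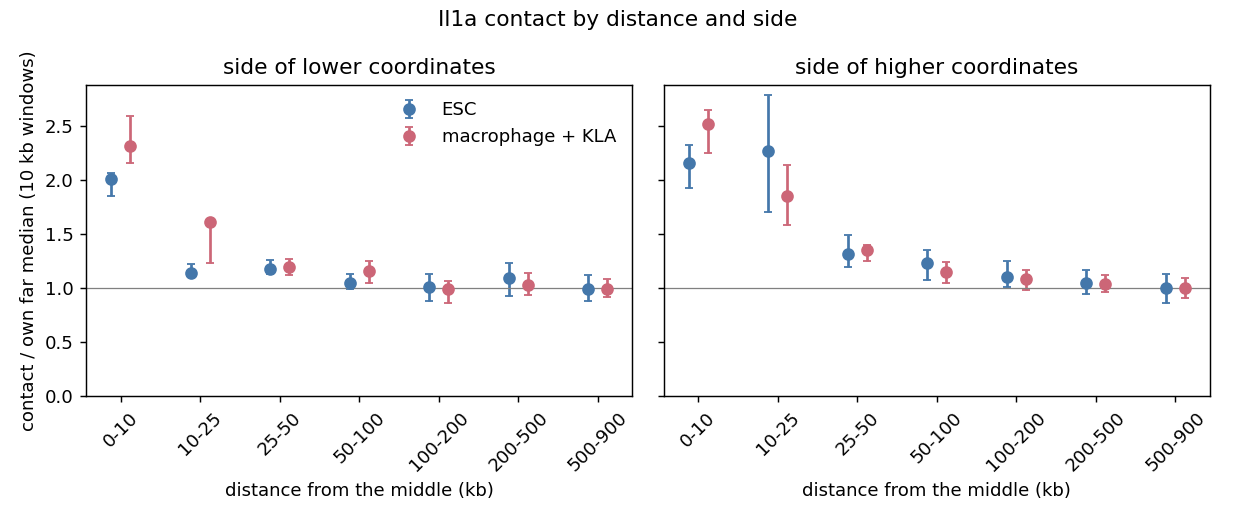
Contact over the far level by distance from the middle, on the side of lower coordinates (left) and of higher coordinates (right). Points are medians over positions and bars the quartiles over positions, which are not replicate errors. The libraries part most at 10 to 25 kb, with 1.14 in ESC against 1.61 in macrophages on the left and 2.26 against 1.85 on the right.

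Beyond 25 kb the medians of the libraries lay close together, while single positions still differed. At 25 to 50 kb the median contact was 1.2499 in ESC and 1.2558 in macrophages, with a median log2 ratio of -0.0080 and 1 of 50 positions counted as higher. At 50 to 100 kb it was 1.11 and 1.16. There 48 of 50 positions on the lower side were higher in macrophages, with a median log2 ratio of 0.15, and 11 of 50 were on the upper side, with -0.050. Beyond 500 and up to 900 kb, 414 of 800 positions were higher in macrophages. Neighbouring windows overlap, so such counts are not counts of separate windows. The differences at 50 to 100 kb were small, with 1 position counted as higher on the lower side and 6 as lower on the upper side. At 100 to 200 kb median contact was 1.06 in ESC and 1.03 in macrophages. There 7 of 200 positions were counted as higher (3.5%) and 8 as lower (4%), and the log2 ratio ran from -0.53 to 0.58 with an SD over positions of 0.19, against 0.13 within 10 kb. At 200 to 500 kb median contact was 1.06 and 1.04, with 1 of 600 positions counted as higher and 10 as lower.

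There were 5 runs of at least 5 neighbouring counted positions, 3 higher in macrophages and 2 lower. The longest lay at 129130157 to 129139157, 23 to 14 kb below the middle, where contact averaged 1.16 in ESC and 1.63 in macrophages, with a mean log2 ratio of 0.49. Its edges were steeper in macrophages. Moving 1 kb into the run took macrophage contact from 1.04 to 1.65 and ESC contact from 1.03 to 1.10. Moving 1 kb out of it took macrophage contact from 1.63 to 1.05 and ESC contact from 1.26 to 1.07. The run was 10 positions long, the width of the window, and its mean passed 0.32 in 3 of the 48 widths, those of 8 to 10 kb, while 33 widths gave a mean above 0. In widths of 5 and 20 kb its mean log2 ratio was -0.059 and -0.018.

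The run at 129328157 to 129334157, 175 to 181 kb above the middle, had the largest mean difference. Contact there was 0.988 in ESC, at the far level, and 1.42 in macrophages, 1.43-fold higher. Its mean passed 0.32 in 15 widths between 3 and 17 kb. A width of 5 kb gave a log2 ratio of 0.37, one of 20 kb 0.23 and one of 49 kb -0.013. The third run higher in macrophages, at 128409157 to 128413157, lay in a trough of both profiles, with 0.503 in ESC and 0.640 in macrophages, both under the far level. Its mean passed 0.32 in 8 widths.

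Both runs lower in macrophages kept their direction in all 48 widths. The runs were picked at 10 kb and wider windows contain the narrower ones, so the widths are not separate checks. At 129248157 to 129252157, 95 to 99 kb above the middle, contact was 1.42 in ESC and 1.06 in macrophages, 1.35-fold lower. There 14 widths between 2 and 15 kb gave a mean past -0.32, and a width of 49 kb gave -0.074. At 128788157 to 128793157, -365 to -360 kb from the middle, contact was 1.71 in ESC and 1.33 in macrophages, 1.28-fold lower. This run passed -0.32 in 9 widths between 2 and 12 kb, and widths of 20 and 49 kb gave -0.30 and -0.20. It holds a local maximum of ESC at 128790157, with 1.84 in ESC and 1.403 in macrophages. Among maxima more than 10 kb from the middle and kept at least 20 kb apart, this was the second highest of ESC.

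**Figure D4:**
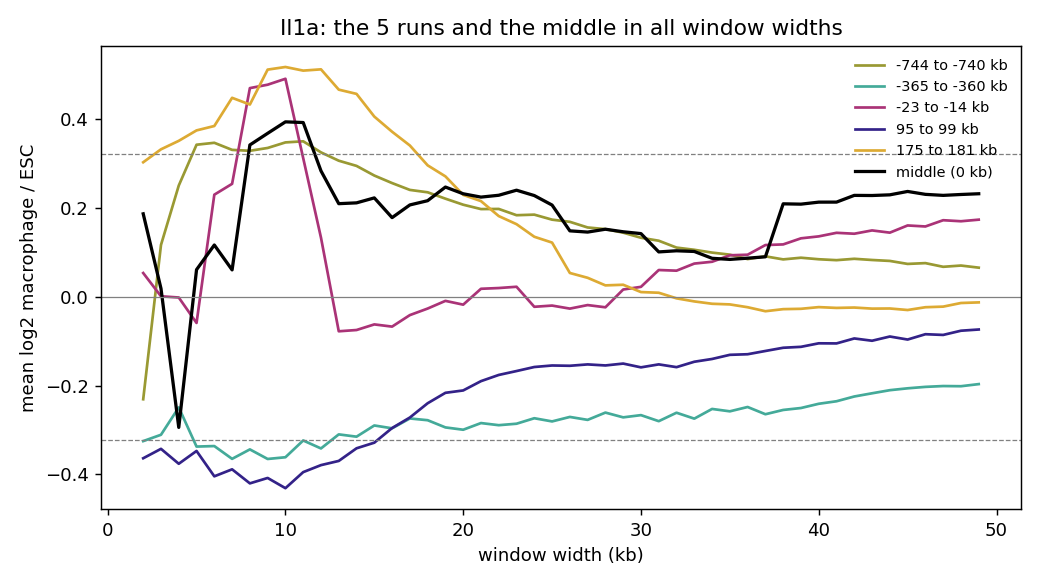
Mean log2 of macrophages over ESC in the 5 runs, named by their distance from the middle, and at the middle, in all 48 window widths (dashed lines at 0.32 and -0.32). The runs at 95 to 99 kb and at -365 to -360 kb stay below 0 in every width, whereas the run at -23 to -14 kb passes 0.32 in widths of 8 to 10 kb only.

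The local maxima away from the middle were listed for each library by its own contact. Such a choice favours higher contact in the library that was used for picking, so the direction of these differences is no separate result. In ESC the 5 highest, kept at least 20 kb apart, lay at 13, -363, 120, 71 and 492 kb. This spacing leaves out higher maxima close to the one at 13 kb, such as 2.78 at 17 kb. At 129273157, 120 kb above the middle, contact was 1.73 in ESC and 1.197 in macrophages, the lowest ratio within 500 kb, with -0.53 on the log2 scale. At 129224157 it was 1.73 in ESC and 1.46 in macrophages, and at 129645157 it was 1.64 and 1.36. Their log2 ratios, -0.25 and -0.26, were smaller than the size counted as different. In windows of 5 kb the maxima at 129273157 and 129224157 fell under the far level of ESC, to 0.538 and 0.873, and at 129273157 the log2 ratio turned to 0.34.

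In macrophages the 5 highest local maxima, kept at least 20 kb apart, lay at 12, -22, 799, 177 and 32 kb. The spacing leaves out 2.14 at 17 kb, close to the one at 12 kb. At 12 and 32 kb the log2 ratios were -0.0030 and 0.16, smaller than the size counted as different. At 129131157, 22 kb below the middle, contact was 1.10 in ESC and 1.72 in macrophages, the highest ratio within 500 kb, with 0.65 on the log2 scale. At this position a width of 5 kb gave 0.859 in macrophages, under the far level, and a width of 20 kb turned the log2 ratio to -0.087. At 129330157 it was 1.07 in ESC and 1.60 in macrophages, and at 129185157 it was 1.42 and 1.59. Other high ratios were 0.45 at 129182157 and 0.31 at 129105157, and other low ones were -0.47 at 128964157 and -0.43 at 128805157. At 129952157, 799 kb above the middle, macrophages had 1.66 and ESC 1.04, but widths of 5 and 20 kb gave 0.972 and 0.977 in macrophages.

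**Figure D5:**
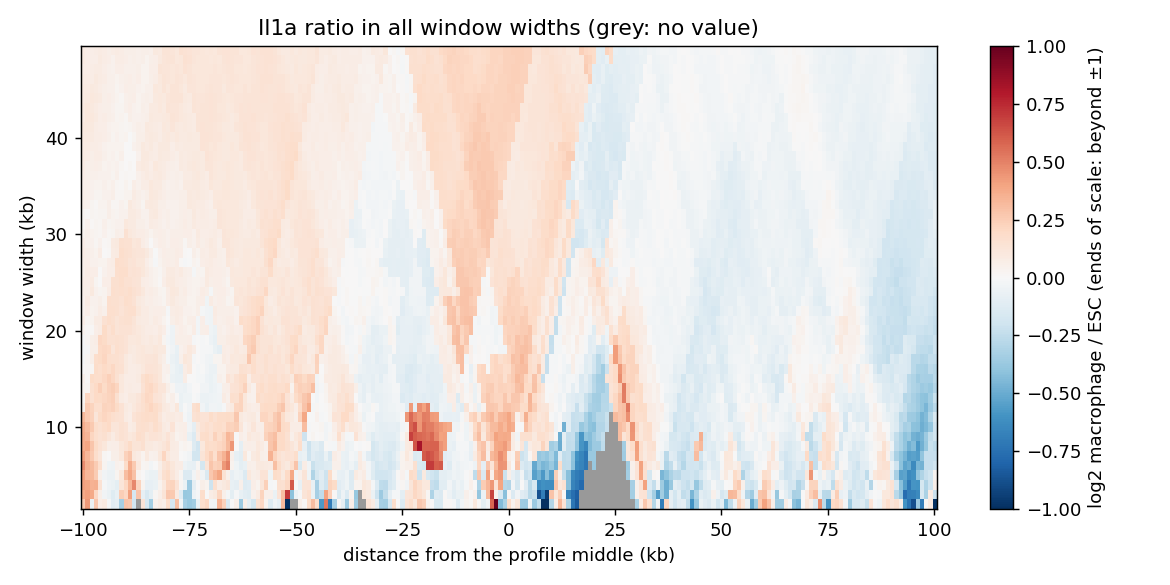
Log2 of macrophages over ESC by distance from the middle (horizontal) and window width (vertical); red is higher in macrophages, blue higher in ESC, grey holds no value. The run at -23 to -14 kb passes 0.32 in widths of 8 to 10 kb, and positions counted as higher in macrophages within 100 kb occur in widths up to 18 kb and lower ones up to 16 kb.

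Wider windows left fewer positions past the fixed size of 0.32. Positions counted as higher in macrophages within 900 kb occurred in widths up to 18 kb, and lower ones in widths up to 33 kb. At a width of 49 kb 0 positions were counted in either direction, while the SD of the log2 ratio over far windows dropped from 0.36 at a width of 2 kb to 0.039. The raised contact around the middle remained in the widest windows, at 1.73 in ESC and 1.95 in macrophages within 10 kb. The median log2 ratio within 10 kb was 0.20 at widths of both 10 and 49 kb, and at 10 to 25 kb it went from -0.034 to 0.16.

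The deposited bounds describe how uneven the signal is inside a window of 1 library and are no error between libraries. Within 10 kb of the middle the median upper bound, in far levels, was 20.5 for ESC and 22.2 for macrophages, against 3.14 and 2.29 at 500 to 900 kb. The median lower bound within 10 kb was below 0 in both. In all 1799 windows within 900 kb the macrophage contact lay inside the ESC bounds and the ESC contact inside the macrophage bounds. Windows at exactly 0 were left out as holding no value. In windows of 2 kb 0 positions were at 0 in 1 library only, and in windows of 10 kb the 2 positions at 0 in both libraries lay 24 and 25 kb above the middle.

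The other viewpoint, Tnfaip3, was measured in ESC and in a library titled macrophage with KLA whose source is Raw 264.7, a macrophage-like line. Treated in the same way, the positions counted as higher in Raw 264.7 were 5.67% and those lower 1.45% within 900 kb of the middle of that profile. Within 10 kb of the middle the median contact was 1.73 in ESC and 1.51 in Raw 264.7, against 2.03 in ESC and 2.43 in macrophages at Il1a. The differences between the viewpoints were not tested.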

How the data were processed

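The authors deposited, per library, a contact signal on a grid of 2001 mm9 positions with 145 columns and no header. CASAVA 1.4, Bowtie2 2.0.1 and build mm9 are named in the submitters' processing notes without roles, and no source used here names the smoothing program. The columns were taken to be 48 widths (2 to 49 kb), each with a central signal, an upper bound (signal) and a lower bound. The deposited lower bound is a score that can fall below 0: it was below 0 in 24.4% of 10 kb windows in macrophages and 3.77% in ESC. Per the labels of the deposited tables the values are a truncated log mean. Central value and bounds obeyed a geometric mean with 1 offset per library (tolerance 1e-06, at least 99.996% of windows), 0.0359 in ESC and 0.478 in macrophages, in units of the highest window.

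Windows at 0 were left out, no pseudocount was used, and each library was divided by its median over 500 to 900 kb. Named positions are the middle, the highest window within 10 kb of it, in each library the 5 highest local maxima 10 to 900 kb away, the 5 highest and 5 lowest ratios within 500 kb where 1 library was at or above its far level (each 20 kb apart), and every run. The highest windows of 2 kb, the non-overlapping windows and the steps between neighbouring windows were added after seeing the values. Members, rules and lists were chosen with earlier results of these data known. Alternatives covered window width, scaling, the value used, a pseudocount, the reference point, a low-contact filter, and thresholds. The scripts were tested on simulated data in which both libraries had the same offset relative to their median. Unequal offsets, as found here, were not covered. The calculations used Python 3.11.15, NumPy 2.4.6 and Matplotlib 3.10.9.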

Additional observations from a re-analysis of the deposited data

Results flagged for a closer look

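Within 10 kb of the profile middle the macrophage-type library and ESC differed in opposite directions at the 2 viewpoints. The median log2 ratio was 0.20 for peritoneal macrophages over ESC at Il1a and -0.29 for Raw 264.7 over ESC at Tnfaip3. Each value compares 1 library with 1 library, the macrophage-type cells are of different origin, and the difference was not tested. The Il1a value changed its sign in windows of 5 kb, with the offset kept and with the log-normal mean. At Tnfaip3 the median log2 ratio was -0.31 on the lower side and -0.053 on the higher side. No such alternatives were computed for the Tnfaip3 value.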

How the results depend on the processing

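No paired analysis was possible because each group holds 1 library. Of 95 alternative values for the main measures 42 kept within 1 SD of far windows (or within 1.5 times for counts), 44 moved further and 9 reversed. For single positions and runs 181 of 313 kept and 21 reversed. Both tallies include values as deposited. Contact in that form was put among the moved without comparison, since it is not in far levels. Among these alternatives the log-normal mean was added after seeing the files. The cause was not tested, except that a higher threshold, a longer run or a filter changes what is counted. Values as deposited keep the 2.20-fold gap in the far level, 1.14 on the log2 scale, that the division removes. Their log2 ratios and percentages differ from the main ones by that gap alone.

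Median contact within 10 kb went from 2.03 in ESC and 2.43 in macrophages to 1.47 and 1.73 in windows of 5 kb, and to 1.95 in macrophages in windows of 49 kb. It was 0.207 and 0.546 as deposited, 6.51 and 9.68 from the upper bounds, 1.46 in macrophages with the offset kept, and 14.1 and 13.7 as a log-normal arithmetic mean. The log2 ratio within 10 kb, 0.20, became 1.33 as deposited and reversed to -0.14 in windows of 5 kb, -0.29 with the offset kept and -0.55 with the log-normal mean.

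Positions higher in macrophages by 0.32 (log2) or more, 1.72%, became 0% in windows of 20 and 49 kb, 100% as deposited, 3.00% with the upper bounds, 2.72% with the offset kept, 0.167% at 1.5-fold and 0% at 2-fold. Positions lower, 1.61%, became 4.46% in windows of 5 kb, 0.555% in windows of 20 kb, 0% in windows of 49 kb, as deposited and at 1.5-fold and 2-fold, 6.61% with the upper bounds, 3.45% with the offset kept and 2.52% with low contact left out. Runs higher numbered 3, but 0 in windows of 20 and 49 kb and 1 at 10 positions. Runs lower numbered 2, but 4 in windows of 5 kb and with the offset kept, 0 in windows of 20 and 49 kb and at 10 positions, and 1 with scaling to 200 to 900 kb.

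At 10 to 25 kb the log2 ratio on the lower side, 0.43, became -0.058 in windows of 5 kb, -0.035 in windows of 20 kb, 0.16 in windows of 49 kb and 0.23 with distances from the highest 2 kb window. On the upper side -0.29 became -0.42, 0.021, 0.13 and 0.16 in that order. ESC contact on the upper over the lower side, 0.99 on the log2 scale, became 1.41 in windows of 5 kb, 0.34 in windows of 49 kb and -0.27 from the highest 2 kb window. The macrophage value, 0.20, became 1.10 in windows of 5 kb, 0.75 in windows of 20 kb and -0.21 from the highest 2 kb window.

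Among positions, contact went under the far level in windows of 5 kb at 129273157 (0.538) and 129224157 (0.873) in ESC and at 129131157 (0.859) and 129952157 (0.972) in macrophages, the last also in windows of 20 kb (0.977) and 49 kb (0.940). The log2 ratio reversed in windows of 5 kb at 129273157 (0.34) and in the run at 129130157 (-0.059). In windows of 20 kb it reversed at 129131157 (-0.087), 129166157 (0.021) and the run at 129130157 (-0.018). In windows of 49 kb it reversed at 129330157 (-0.043), 129182157 (-0.080), 129166157 (0.13) and the run at 129328157 (-0.013). It reversed at 129153157 with the offset kept (-0.20). As deposited, with the 2.20-fold far-level gap left in, it reversed at 129273157 (0.60), 129250157 (0.65), 129166157 (0.66), 128964157 (0.67) and 128805157 (0.70). Read depth is unknown.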
